A study of Mus musculus with 3 samples.

Results

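The receptors that share the common gamma chain were followed across the leukocytes of inflamed islets. The family was taken as 8 named genes, all of which were found among the 32285 genes listed in the count tables: the receptor chains Il2ra, Il2rb, Il2rg, Il7r, Il15ra, Il21r and Il4ra, and the ligand Il15. The libraries were made from live CD45+ cells that had been sorted from islets of female wild-type NOD mice, a strain that develops autoimmune diabetes without treatment. Each of the 3 libraries pooled 2 to 3 mice, whose age is given as 15 to 16 weeks in the methods and from 14 weeks in a legend. No mouse was treated, so there is 1 condition, and the comparisons are between kinds of cell within a library. The methods name 2 independent experiments without saying which library belongs to which.

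Interleukin (IL)-2, IL-4, IL-7, IL-9, IL-15 and IL-21 signal through receptors that contain the common gamma chain, the product of Il2rg. The IL-2 receptor adds Il2ra (CD25) and Il2rb (CD122). The IL-15 receptor uses Il2rb, with IL-15 presented by Il15ra on a neighboring cell. IL-7, IL-21 and IL-4 use Il7r, Il21r and Il4ra. JAK1 and JAK3 bound to the chains activate STAT5 after IL-2, IL-7 and IL-15, STAT3 after IL-21 and STAT6 after IL-4. In T cells these signals are known for survival of naive and memory cells through IL-7, and for the dependence of Foxp3+ regulatory T cells on IL-2.

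Classes were set cell by cell from the counts of unique molecular identifiers (UMIs), which stand for single RNA molecules. Cells needed at least 1000 UMIs and under 10% mitochondrial UMIs. CD8 T cells had Cd3e, at least 2 UMIs of Cd8a and Cd8b1 together and no Cd4 (3199 cells). CD4 T cells had Cd3e and Cd4 without Cd8a, Cd8b1 or Foxp3 (5858 cells). Treg cells had Cd3e and Foxp3 (1612 cells). B cells had at least 2 UMIs of Cd79a and no Cd3e (4936 cells). Macrophages had at least 5 UMIs of C1qa and C1qb together, no Cd3e and at most 1 UMI of Cd79a (68 cells). These 5 classes held 15673 of the 26142 cells within the limits, and the family's UMIs in them were 49.6% (Il7r) to 65.7% (Il15) of those in all such cells. Natural killer (NK) cells, with Ncr1 (245 cells), and conventional dendritic cells (cDC), with Flt3 and at least 5 UMIs of H2-Aa (197 cells), are given for reference and were not tested.

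The libraries listed 5844, 9537 and 11566 cells, with 33851381 to 80806452 UMIs each, and shared 12 to 29 barcodes pairwise. Markers that the gates did not use fitted the class names: Ikzf2 stood at 934 CPM (counts per 1000000 UMIs) in Treg against 203 in CD4 T cells, Ms4a1 at 515 in B cells, and Csf1r at 402 in macrophages. Macrophages were few (31, 10 and 27 cells in replicates 1, 2 and 3), and a list of NK markers read 1737 ± 210 CPM in them, of which the myeloid gene Tyrobp made 1719. The B-cell marker list stood at 937 ± 489 CPM in Treg cells, highest in replicate 1 (1413), against 3216 ± 1032 in B cells, and a plasma cell list at 2369 ± 1528 in B cells. The list of islet hormone genes reached 1372 CPM in the macrophages of replicate 3. T-cell markers stood at 1038 CPM in NK cells, 25.9% of the mean of the T classes, though the NK gate asked for no Cd3e. The part of these transcripts in the results was not tested, apart from a stricter gate, the purity gate. It dropped T cells with more than 1 UMI of Cd79a and Cd79b together or more than 2 of C1qa and C1qb. It likewise limited Trac and Cd3d in B cells and macrophages, C1qa and C1qb in B cells and Cd79b in macrophages. No other gene was used, and NK cells and cDC were left as they were.

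The 8 genes lie at 6 places in the genome (GRCm38, GENCODE M21). Il2ra (chr2:11642807-11693193) and Il15ra (chr2:11705290-11734317) are neighbors on the plus strand, 12096 bases apart with no gene between them. Il4ra (chr7:125552120-125579474) and Il21r (chr7:125603429-125633570) are likewise neighbors on the plus strand, 23954 bases apart. Il7r (chr15:9505788-9530176) and Il2rb (chr15:78479256-78495271) lie far apart on the minus strand of 1 chromosome, Il15 at chr8:82331632-82403222 and Il2rg at chrX:101264378-101268255, both on the minus strand. Il2ra and Il2rg are overlapped on their own strands by the gene models Gm37881 and Gm20489, which have no row in the count tables. Gm44876, which does have a row, overlaps Il4ra on the opposite strand.

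RefSeq promoter windows (GRCm38.p6) were at hand for 6 of the 8 genes. Those of Il7r, Il2rg and Il4ra are printed because these 3 receptor genes were lower in Pdcd1+ than in Pdcd1- T cells of both lineages, as described below. Each is the stretch before the RefSeq start site that lies in no exon of a coding transcript, read 5′ to 3′ on the gene's strand, and the capitals mark letters that match a searched motif. For Il7r the RefSeq start site lies inside the GENCODE gene.
Il7r, chr15:9529877-9530126, minus strand: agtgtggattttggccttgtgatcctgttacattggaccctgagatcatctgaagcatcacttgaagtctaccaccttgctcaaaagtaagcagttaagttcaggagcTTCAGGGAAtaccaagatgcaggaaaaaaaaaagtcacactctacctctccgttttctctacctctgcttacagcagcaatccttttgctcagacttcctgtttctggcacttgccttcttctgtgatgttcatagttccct
Il2rg, chrX:101268256-101268505, minus strand: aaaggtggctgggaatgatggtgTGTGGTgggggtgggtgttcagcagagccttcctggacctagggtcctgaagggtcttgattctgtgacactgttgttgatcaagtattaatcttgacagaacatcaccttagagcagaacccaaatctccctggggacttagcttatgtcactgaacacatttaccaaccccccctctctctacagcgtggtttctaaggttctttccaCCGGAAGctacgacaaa
Il4ra, chr7:125552021-125552119, plus strand: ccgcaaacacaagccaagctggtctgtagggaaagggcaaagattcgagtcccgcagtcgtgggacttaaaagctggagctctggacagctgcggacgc
Motifs were searched on both strands of the 250 bases before the start site. The STAT form TTCNNNGAA was found in Il7r, starting 142 bases before the start site, and is held by 7.02% of all 32851 windows. The ETS form CCGGAAG was found 17 bases before the start site of Il2rg (6.91% of windows) and the RUNX form TGTGGT 227 bases before it (4614 of the windows). The 3 genes shared none of these matches, and neither the FOXO form GTAAACA (3.17% of windows) nor the TCF form CTTTGAT (3.21%) occurred in any of them. None of the 5 motifs occurred in the 250 bases before Il4ra.

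Across the 5 classes, Il2rg was found in every class, Il2rb was high in T cells, and Il21r was shared by the lymphocytes and low in macrophages. Il7r was high in T cells and low in B cells, with the macrophage mean among the T classes. Il2ra was highest in Treg cells and the ligand Il15 in macrophages. Levels are UMIs summed per class and library, in CPM, as mean ± SD over the 3 libraries. In the fit across 12091 genes with the library as a block, 4 of 8 members differed between CD4 T and Treg cells, where 5.74% of all genes did. Between CD8 T and CD4 T cells 2 of 8 differed (11.1% of all genes), and between CD8 T and Treg cells 2 of 8 (16.6%). Against B cells, 5 of 8 differed from CD8 T cells (48.7% of all genes), 3 of 8 from CD4 T cells (51.6%) and 6 of 8 from Treg cells (48.4%). In these comparisons a large part of all genes differed too, so the counts of members say little by themselves. Against macrophages, 5 of 8 differed from CD8 T cells (37.0%), 7 from CD4 T cells (35.8%), 6 from Treg cells (33.7%) and 6 from B cells (36.0%). Each of the 4 counts against macrophages includes Il15, which passed the count filter only through the macrophage sums and so had to differ. The median log2 difference of the members was 0.14 for CD8 T minus CD4 T (0.01 over all genes tested), 0.07 for CD8 T minus Treg (0.02) and -0.42 for CD4 T minus Treg (-0.00).

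**Figure D1:**
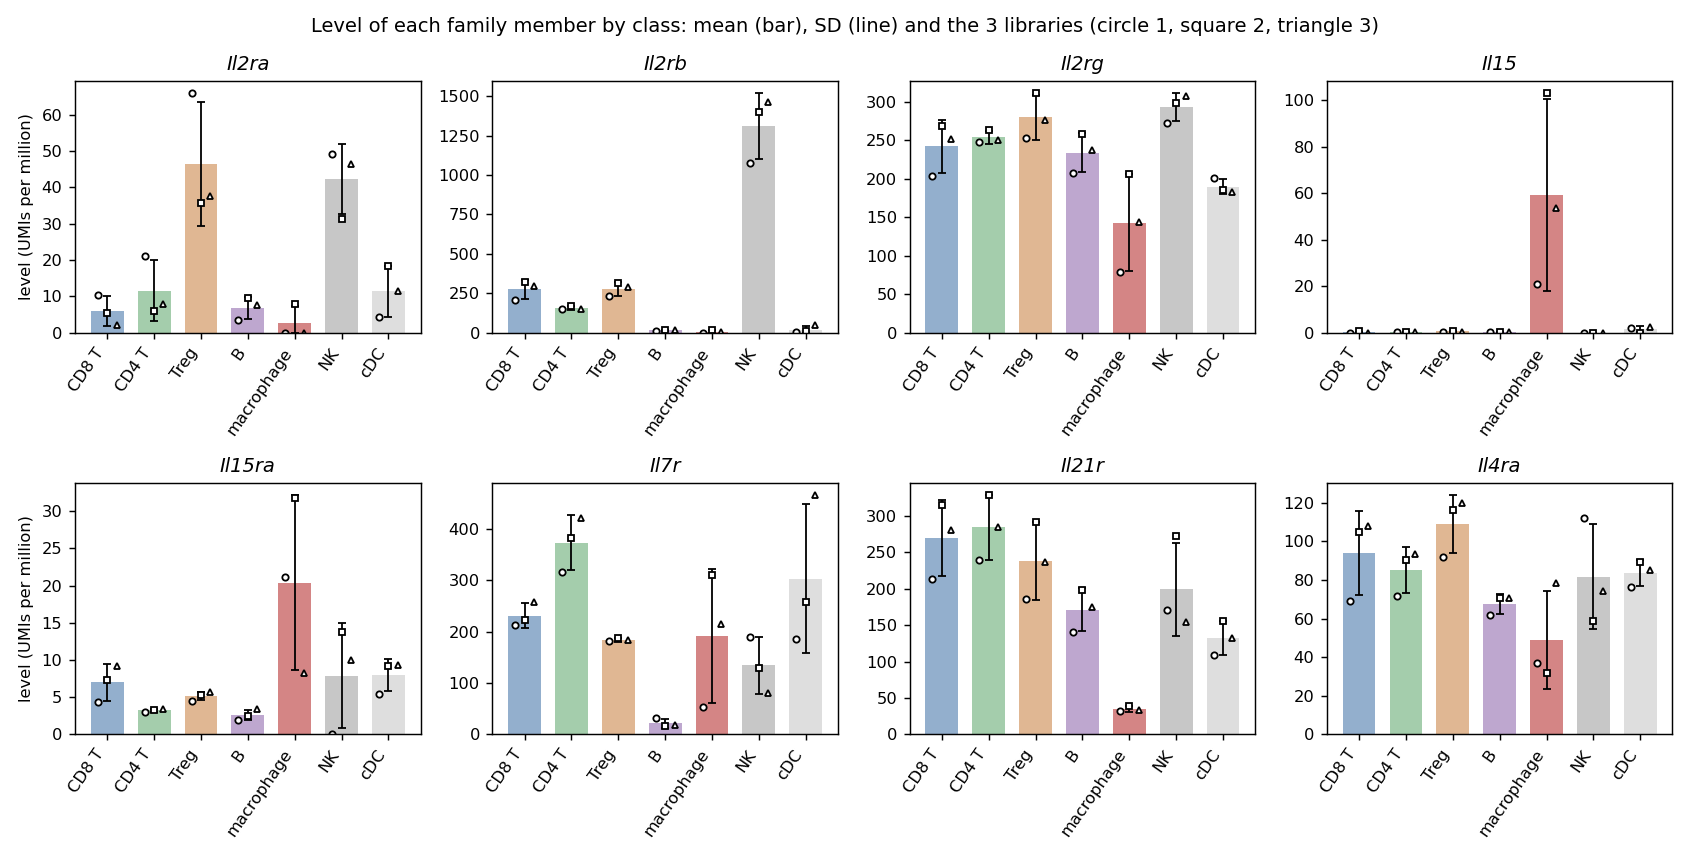
Level of each of the 8 genes (vertical axis, CPM, from 0) in 5 tested classes and in NK cells and cDC for reference. Bars are means, lines the SD, and the circle, square and triangle are replicates 1, 2 and 3. Il2rg is spread over all classes, Il2ra is highest in Treg cells, Il2rb in NK cells, and Il15 in macrophages.

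Il2rg, the chain that the family is named for, was spread evenly over the lymphocytes. It read 204, 269 and 252 CPM in CD8 T cells of replicates 1, 2 and 3, 248, 263 and 250 in CD4 T cells, 253, 311 and 277 in Treg cells and 207, 258 and 237 in B cells. These ranges overlapped, and the fitted differences between the 4 lymphocyte classes ran from -0.06 to 0.06 on the log2 scale, each with adjusted p of at least 0.726. For CD8 T minus CD4 T the 95% interval was -0.22 to 0.28. Macrophages were lower, at 79.3, 206 and 144 CPM from 76 UMIs in all. The fitted differences were 0.91 ± 0.17 (log2 ± SE) from CD8 T, 0.88 ± 0.17 from CD4 T, 0.94 ± 0.17 from Treg and 0.88 ± 0.17 from B cells (adjusted p 0.000433, 0.000589, 0.000375 and 0.000588). In these macrophage comparisons the genes at 50 CPM or more were themselves shifted by a median of 0.34 to 0.38, or 0.19 to 0.24 with the scaling of relative log expression (RLE), so relative to that median Il2rg was lower in macrophages by 0.52 to 0.60 under both scalings.

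Il2ra, the chain that gives the IL-2 receptor its high affinity, set Treg cells apart from the other lymphocyte classes tested. It stood at 66.0, 35.8 and 37.7 CPM in Treg cells (46.5 ± 17.0), at 21.1, 5.87 and 7.82 in CD4 T cells (11.6 ± 8.28) and at 10.3, 5.40 and 2.17 in CD8 T cells (5.97 ± 4.12). Every Treg value lay above every value of the other tested classes. Replicate 1 was the highest library in all 3 T classes, but not in B cells (3.60, 9.45 and 7.66 CPM). The log2 difference was -2.07 ± 0.36 for CD4 T minus Treg (adjusted p 0.00284) and -2.90 ± 0.42 for CD8 T minus Treg (adjusted p 0.000163), and Treg exceeded B cells by 2.41 ± 0.38 (adjusted p 8.78e-05). CD8 T, CD4 T and B cells were not told apart from each other, with intervals from -1.78 to 0.12 for CD8 T minus CD4 T and -0.52 to 1.20 for CD4 T minus B. After each cell was thinned to 2000 UMIs and the classes were set again, CD4 T minus B was called (0.92, adjusted p 0.0495). Without replicate 1 CD8 T minus B was called (-1.17, adjusted p 0.0119). Macrophages held 1 UMI of Il2ra in 558022, an exact 95% counting range of 0.0454 to 9.98 CPM. Treg minus macrophage was not called (4.55, 95% interval 0.69 to 8.42, adjusted p 0.0662), except in some alternatives such as DESeq2 (4.27, adjusted p 0.0047). NK cells, which were not tested, stood at 49.2, 31.4 and 46.4 CPM (42.3 ± 9.58) and overlapped Treg cells.

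Il2rb, which binds both IL-2 and IL-15, was highest in Treg and CD8 T cells among the 5 classes, then in CD4 T cells, and low in B cells. It read 210, 322 and 294 CPM in CD8 T cells, 231, 316 and 288 in Treg cells, 150, 170 and 150 in CD4 T cells, and 12.8, 18.6 and 14.5 in B cells. CD8 T and Treg cells overlapped, with a log2 difference of 0.17 (95% interval -0.09 to 0.43). CD8 T cells exceeded CD4 T cells by 0.90 ± 0.12 in all 3 libraries (adjusted p 0.00017), and Treg cells exceeded CD4 T cells, whose difference from them was -0.74 ± 0.12 (adjusted p 0.00214). CD8 T cells exceeded B cells by 4.15 ± 0.14 (adjusted p 7.89e-12). NK cells, which were not tested, stood at 1073, 1400 and 1461 CPM, above every sum of the 5 classes. The level in B cells was 6.46% of the mean of the T classes, while T-cell marker genes, which B cells do not use, stood at 3.71%. The B-cell gate asked for no Cd3e, which by itself holds such markers down. Macrophages held 3 UMIs (1.11 to 15.7 CPM by counting error).

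Il15 was concentrated in macrophages. All cells within the limits held 102 UMIs of it, and 30 of these were in the 68 macrophages, which made up 0.260% of the cells and 0.296% of all UMIs. Macrophages read 21.1, 103 and 53.6 CPM, from 4, 13 and 13 UMIs. The 15605 cells of the other classes held 37 UMIs, or 0.306 CPM (exact counting range 0.215 to 0.422), against 53.8 CPM (36.3 to 76.7) for the macrophage UMIs in all. No library of any lymphocyte class came above 0.876 CPM. The fitted log2 differences from macrophages ran from -6.84 ± 0.61 (Treg) to -8.28 ± 0.63 (CD4 T). They are given as a description, with no test, since Il15 passed the count filter only through its macrophage sums and so had to differ. Dendritic cells held 4 UMIs (0.469 to 4.41 CPM) and NK cells none, where 3 UMIs would be 2.11 CPM.

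Il15ra, which holds IL-15 on the surface of the presenting cell, was scarce everywhere, with 850 UMIs in all cells. Macrophages read 21.1, 31.7 and 8.24 CPM from 10 UMIs, CD8 T cells 4.37, 7.36 and 9.20, Treg cells 4.55, 5.25 and 5.64, CD4 T cells 2.96, 3.23 and 3.47, and B cells 1.99, 2.42 and 3.37. Among lymphocytes, CD8 T cells exceeded CD4 T cells in each library, by 1.26 ± 0.23 on the log2 scale (adjusted p 0.00155), and B cells by 1.44 ± 0.24 (adjusted p 0.00011). CD8 T and Treg cells were not told apart (0.68, 95% interval 0.17 to 1.19, adjusted p 0.0683), except without replicate 1 (0.81, adjusted p 0.0319) and when macrophages were left out of the fit. Macrophages exceeded CD4 T cells, with a log2 difference of -2.51 ± 0.55 for CD4 T minus macrophage (adjusted p 0.00199), and B cells (-2.69 ± 0.56, adjusted p 0.00136), but for CD8 T minus macrophage adjusted p was 0.0637 (0.0213 without replicate 3). Treg minus macrophage was -1.92 ± 0.53 (adjusted p 0.0107) and lost its call without replicate 1 or 2. Without replicate 2 the CD4 T difference from macrophages lost its call, and so did CD8 T minus CD4 T without replicate 2 (adjusted p 0.0721) or 3 (0.0912). Under the cell limits of the study CD8 T minus CD4 T was not called either (0.97, adjusted p 0.172). There 1 library gave a macrophage sum, with -2.16 for CD4 T and -2.37 for B minus macrophage. The macrophage value of replicate 3 came from 2 UMIs.

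Il7r, the chain that joins Il2rg in the IL-7 receptor, was highest in CD4 T cells and low in B cells. It read 316, 382 and 421 CPM in CD4 T cells, 213, 222 and 257 in CD8 T cells, 181, 188 and 183 in Treg cells and 31.9, 15.4 and 18.7 in B cells. The 4 ranges did not overlap. CD4 T cells exceeded Treg cells by 1.10 ± 0.27 (adjusted p 0.0241), whereas CD8 T minus CD4 T cells, neighbors in this order, did not pass (-0.58, 95% interval -1.15 to -0.02, adjusted p 0.196), nor did CD8 T minus Treg (0.51, -0.06 to 1.09, adjusted p 0.231). Without replicate 1 both were called (-0.65 and 0.57, adjusted p 0.00565 and 0.00843), and after thinning CD8 T minus CD4 T was (-0.79, adjusted p 4.17e-05). CD4 T cells exceeded B cells by 3.95 ± 0.30 (adjusted p 3.04e-08), and the level in B cells was 8.38% of the mean of the T classes. Macrophages held 101 UMIs and differed widely between libraries, at 52.9, 309 and 214 CPM. They exceeded B cells in all 3 libraries (B minus macrophage -2.92 ± 0.41, adjusted p 3.46e-05), but after thinning, which left macrophage sums of 2 libraries, this difference was -0.19 (adjusted p 0.846) and CD8 T minus macrophage went from 0.45 to 2.35 (adjusted p 0.000158). Their mean of 192 ± 130 CPM lay among the T classes while T-cell markers in them stood at 0.703% of the T-cell level. The macrophage gate asked for no Cd3e, which by itself holds such markers down, and the part of T-cell RNA was not tested. Under the cell limits of the study, which left 18, 1 and 4 macrophages, only replicate 1 gave a macrophage sum and B minus macrophage turned to 0.94 (adjusted p 0.832). Dendritic cells read 186, 258 and 466 CPM.

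Il21r, the private chain of the IL-21 receptor, was shared by the lymphocytes and low in macrophages. It read 240, 329 and 284 CPM in CD4 T cells, 213, 315 and 281 in CD8 T cells, 186, 292 and 236 in Treg cells, 140, 198 and 175 in B cells, and 31.7, 39.6 and 33.0 in macrophages. CD8 T and CD4 T cells were not told apart (0.03, 95% interval -0.17 to 0.22). Both exceeded Treg cells slightly, by 0.37 ± 0.09 (CD8 T, adjusted p 0.0106) and 0.35 ± 0.09 (CD4 T, adjusted p 0.0374), in every library but with overlapping ranges. Both calls were lost without replicate 2, without replicate 3, without the block and after thinning, where the differences kept their sign. CD8 T and CD4 T cells exceeded B cells by 0.64 ± 0.09 and 0.61 ± 0.09 (adjusted p 3.24e-05 and 4.47e-05), without overlap and under every alternative run. Treg cells did so by 0.26 ± 0.09 (adjusted p 0.0279), with overlapping ranges and the call lost under 7 alternatives. B cells exceeded macrophages by 2.42 ± 0.18 (adjusted p 4.51e-08), well past the median shift of that comparison, 0.36. Dendritic cells, which were not tested, read 109, 155 and 133 CPM.

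Il4ra, which pairs with the common chain for IL-4, differed little among the lymphocytes. It read 92.0, 116 and 120 CPM in Treg cells, 68.9, 105 and 108 in CD8 T cells, 71.7, 90.5 and 93.4 in CD4 T cells, 61.7, 70.4 and 70.8 in B cells, and 37.0, 31.7 and 78.3 in macrophages. Treg, CD8 T and CD4 T cells were not told apart in the fit of all cells, with log2 differences between -0.27 and 0.24 and adjusted p of at least 0.193. After thinning, Treg cells exceeded both CD4 T cells (-0.78, adjusted p 0.000967) and CD8 T cells (-0.70, adjusted p 0.00682), and under the cell limits of the study CD4 T minus Treg was called (-0.62, adjusted p 0.00106). Without replicate 1, CD8 T minus CD4 T was called (0.31, adjusted p 0.0373). Treg cells exceeded B cells by 0.47 ± 0.11 (adjusted p 0.00265) and CD8 T cells did so by 0.44 ± 0.11 (adjusted p 0.00369), while CD4 T minus B was 0.20 (95% interval -0.04 to 0.43) and was called without replicate 1 (0.31, adjusted p 0.0107). The CD8 T difference from B cells was 0.03 after thinning (adjusted p 0.928) and lost its call without replicate 2 (0.0966), without replicate 3 (0.0857) and without the block (0.134), and that of Treg cells lost it without the block (0.118). CD8 T minus macrophage was 0.92 ± 0.24 (adjusted p 0.00678), or 0.54 past the median shift, and lost its call without replicate 2 (adjusted p 0.0833) and after thinning (0.69, adjusted p 0.328). B minus macrophage did not pass (0.48, 95% interval -0.05 to 1.01, adjusted p 0.152).

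The calls between CD4 T and Treg cells rested on the pairing of classes by library. Without the block, no member call between CD4 T and Treg cells was left: the differences stayed at -1.99 for Il2ra, -0.75 for Il2rb, 1.11 for Il7r and 0.34 for Il21r, with adjusted p of 0.109, 0.24, 0.222 and 0.853. Of all genes, 0.835% passed without the block. The same 4 calls were lost without replicate 2 and without replicate 3, where 0 members passed and 1.00% and 1.24% of all genes did. Without replicate 1, 3 members passed, and 9.13% of all genes did. Il2rb in CD8 T against CD4 T cells (0.93, adjusted p 0.0464 without the block) and Il2ra in CD8 T against Treg cells were kept under every alternative run. Il15ra in CD8 T against CD4 T cells was also kept without the block (1.24, adjusted p 0.0439). Il21r in CD8 T against Treg cells was not (0.37, adjusted p 0.448).

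The share of cells with a UMI was highest in Treg cells for Il2ra, too. For shares, the classes set on the full counts were kept. After each cell was thinned to 2000 UMIs, Il2ra was seen in 8.58% ± 2.76 of Treg cells, 2.04% ± 1.83 of CD4 T cells, 0.804% ± 0.439 of CD8 T cells and 0.898% ± 0.283 of B cells, and the share in CD8 T cells was no higher than in B cells. Without thinning the Treg share was 22.4%, at median depths of 4618 to 9843 UMIs per Treg cell and 4549 to 6423 per CD4 T cell. Il2rb was seen in 41.0% ± 2.08 of thinned Treg cells, 38.9% ± 4.55 of CD8 T cells, 23.0% ± 2.73 of CD4 T cells and 90.0% ± 4.94 of NK cells. Its share in B cells, 2.26% ± 0.323, was no higher than that of the T-cell gene Cd3d in the same cells, 3.03% ± 1.10, and that of Il7r was 2.45% ± 1.20. By summed level both genes stood higher in B cells, relative to the T classes, than the T-cell markers did, as given above, and the part of free RNA in these B-cell values was not tested. Il15 was seen in 7 of 67 thinned macrophages (13.3% ± 8.10 over libraries) but in 1 of 3197 CD8 T cells, 2 of 5815 CD4 T cells, 1 of 1592 Treg cells and 2 of 4910 B cells.

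Receptors need their chains in 1 cell. All 3 chains of the high-affinity IL-2 receptor (Il2ra, Il2rb and Il2rg) were seen together in 2.77%, 2.32% and 0.942% of thinned Treg cells, in 1.01%, 0.142% and 0.142% of CD4 T cells, and in 3 of 3197 CD8 T cells. In NK cells the share was 1.33%, 2.70% and 0%. Il2rb with Il2rg, the signaling pair for IL-15, was seen in 20.1%, 18.9% and 15.1% of Treg cells, 15.5% ± 2.36 of CD8 T cells, 9.22% ± 1.65 of CD4 T cells, 0.841% ± 0.153 of B cells and 36.0%, 44.6% and 35.9% of NK cells. The pair lay higher in CD8 T and Treg cells than in CD4 T cells in every library, as did Il2rb alone. Whether the chains met in 1 cell more often than their single shares would give was not tested. The IL-7 receptor pair, Il7r with Il2rg, was seen in 16.9% ± 1.58 of CD4 T cells, 12.2% ± 0.803 of CD8 T cells, 11.8% ± 2.00 of Treg cells and 1.11% ± 0.473 of B cells. With 3 libraries an exact sign-flip test cannot go below 0.25, so these shares were not tested. Thinning lowers each of them, since a chain can be missed in a cell that has it, and without thinning the 3-chain share in Treg cells was 17.2%.

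**Figure D2:**
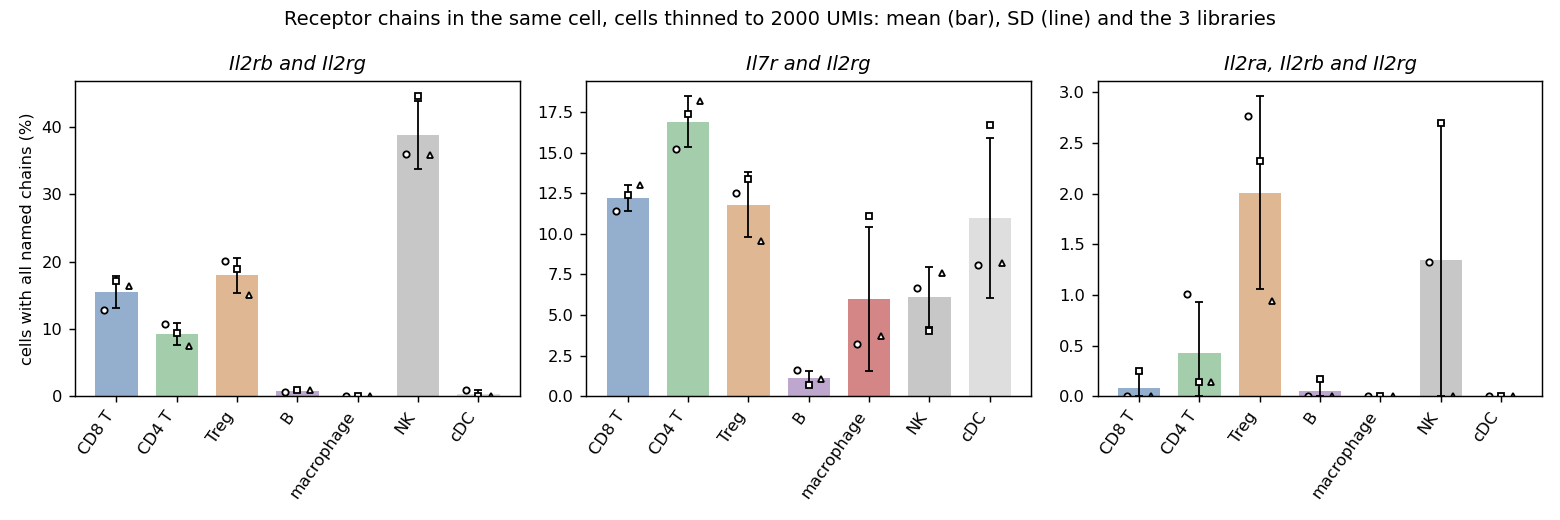
Share of cells (vertical axis, percent, from 0) in which all the named chains were seen, after thinning to 2000 UMIs per cell. Bars are means over 3 libraries, lines the SD, and markers the libraries (circle 1, square 2, triangle 3). Treg cells are highest for the 3-chain IL-2 receptor (2.01%), CD4 T cells for Il7r with Il2rg (16.9%), and NK cells for Il2rb with Il2rg (38.8%).

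T cells were next divided by Pdcd1, which encodes the inhibitory receptor PD-1 and is kept high in T cells that meet antigen repeatedly. Cells with a Pdcd1 UMI (1066 CD8 and 2003 CD4 T cells) were compared with those without (2133 and 3855). A UMI is more often seen in a deeper cell: median depth was 5865 to 8656 UMIs in Pdcd1+ and 4896 to 7309 in Pdcd1- CD8 T cells. In CD8 T cells 4 of the 7 members tested differed, where 14.4% of 9698 genes did, and in CD4 T cells 4 of 7 differed, where 14.5% of 10951 did. They were the same 4 genes in the same direction: Il7r, Il4ra and Il2rg were lower and Il2rb higher in Pdcd1+ cells.

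Il7r had the largest difference of the members tested in both lineages. In CD8 T cells it read 109, 167 and 168 CPM with Pdcd1 and 312, 250 and 309 without, a log2 difference of -1.13 ± 0.13 (adjusted p 0.000323). In CD4 T cells it read 187, 208 and 218 CPM with Pdcd1 and 390, 498 and 560 without (-1.40 ± 0.09, adjusted p 0.000344). The groups did not overlap in either lineage. In cells thinned before they were divided, the differences were -0.80 in CD8 and -1.46 in CD4 T cells, both past the threshold.

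Il4ra read 50.6, 72.4 and 79.0 CPM in Pdcd1+ and 86.6, 121 and 124 in Pdcd1- CD8 T cells (-0.88 ± 0.08, adjusted p 0.000127). In CD4 T cells it read 64.4, 66.3 and 67.9 against 75.8, 107 and 111 (-0.77 ± 0.11, adjusted p 0.00421). The groups did not overlap, but after thinning the difference in CD8 T cells was -0.12 (adjusted p 0.92) while that in CD4 T cells was -1.26. Il2rg fell less, by 0.41 ± 0.07 in CD8 T cells (176, 257 and 220 against 230, 275 and 271 CPM, adjusted p 0.00475) and by 0.43 ± 0.07 in CD4 T cells (226, 237 and 218 against 260, 281 and 272 CPM, adjusted p 0.00823). The groups overlapped in CD8 but not in CD4 T cells, and the call was lost without replicate 3 in both lineages (adjusted p 0.088 and 0.119), without replicate 2 in CD4 T cells (0.0546) and after thinning in CD8 T cells (0.213).

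Il2rb went the other way. In CD4 T cells it read 196, 268 and 223 CPM with Pdcd1 and 124, 104 and 99.7 without, a difference of 0.92 ± 0.11 (adjusted p 0.00192) with no overlap. In CD8 T cells it read 252, 399 and 355 against 168, 284 and 260 CPM (0.34 ± 0.08, adjusted p 0.0151), with overlapping ranges, and this call was lost without replicate 3 (adjusted p 0.0757), under the cell limits of the study (0.0652) and after thinning (0.116). Il2ra, Il15ra and Il21r did not pass in either lineage, with intervals of -0.11 to 1.15 for Il2ra and -0.10 to 0.24 for Il21r in CD8 T cells. In CD4 T cells Il21r was 0.18 (95% interval 0.02 to 0.34), and it was called after thinning (0.36, adjusted p 0.0156), under the cell limits of the study (0.43, adjusted p 0.0102) and without replicate 1 (0.20, adjusted p 0.00384). Il2ra was called there without replicate 1 (0.62, adjusted p 0.0253). Il15 was under the count filter.

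These calls, too, rested on the block by library: without it edgeR called 0 members and 0 genes in either lineage, with 1086 and 1267 genes at an unadjusted p under 0.05 (Il7r -1.12, adjusted p 0.101, in CD8 and -1.42, 0.0671, in CD4 T cells). Yet Il7r, Il4ra and Il2rg were lower and Il2rb higher in Pdcd1+ cells in 3 of 3 libraries of both lineages. The difference between the lineages was tested as an interaction across 10939 genes. No member passed and no gene did (0% of genes by edgeR, with 808 genes at an unadjusted p under 0.05 and 20 called by DESeq2). For Il2rb the interaction was -0.58 (95% interval -1.01 to -0.14, adjusted p 0.493). Without replicate 1 it was -0.81 (adjusted p 0.000215), and that of Il7r was 0.56 (0.00684).

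**Figure D3:**
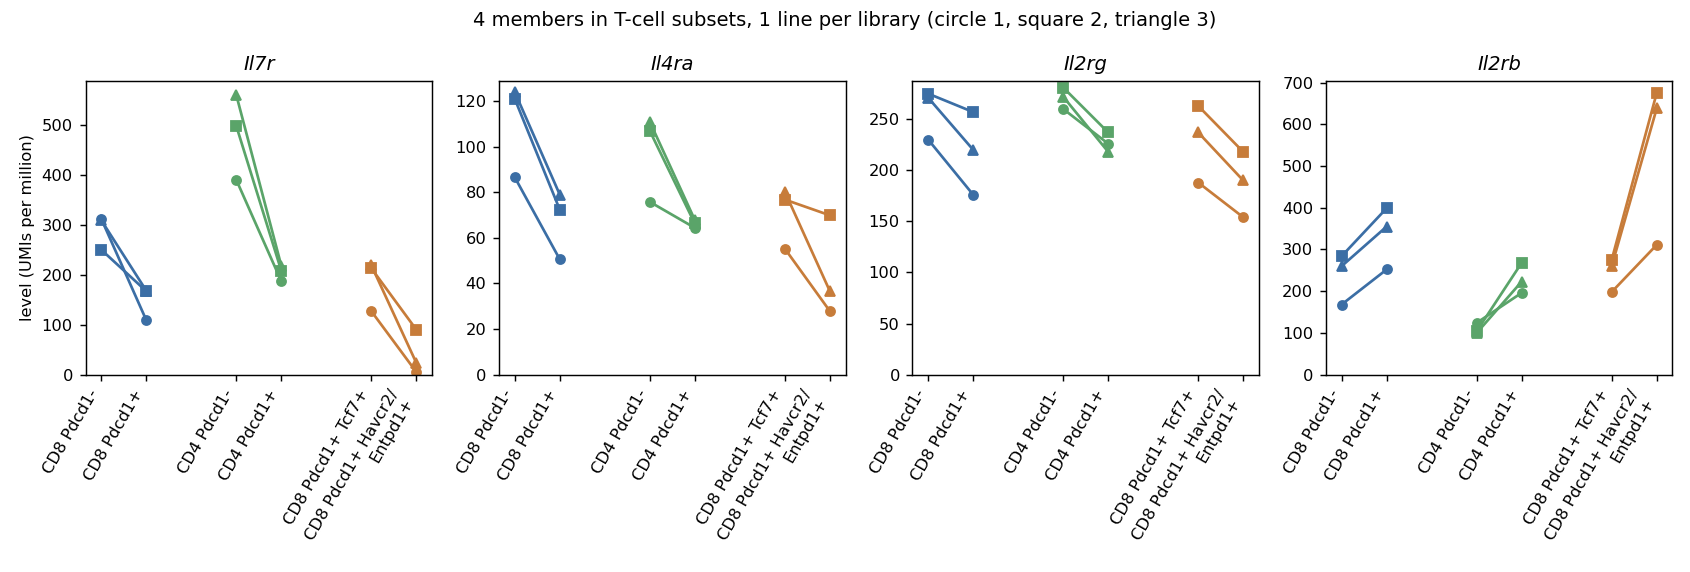
Level (vertical axis, CPM, from 0) of Il7r, Il4ra, Il2rg and Il2rb in Pdcd1- and Pdcd1+ CD8 T cells, Pdcd1- and Pdcd1+ CD4 T cells, and Tcf7+ and Havcr2/Entpd1+ cells among Pdcd1+ CD8 T cells. Each line joins the values of 1 library (circle 1, square 2, triangle 3). The lines of Il7r, Il4ra and Il2rg all fall to the right within each pair and those of Il2rb all rise.

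Within Pdcd1+ CD8 T cells, those with Tcf7 and without Havcr2 or Entpd1 (446 cells, a progenitor-type pattern) were set against those with Havcr2 or Entpd1 and without Tcf7 (217 cells, the pattern of terminal differentiation). Of the 5 members tested 3 differed, where 13.2% of 6920 genes did. Il7r read 5.23, 90.0 and 23.5 CPM in Havcr2/Entpd1+ cells, from 3, 76 and 16 UMIs, and 127, 213 and 219 in Tcf7+ cells (-2.32 ± 0.35, adjusted p 0.00116). Il2rb read 311, 675 and 638 against 198, 275 and 260 CPM (1.06 ± 0.13, adjusted p 0.00025). Neither pair of groups overlapped. Il4ra was lower in Havcr2/Entpd1+ cells at the edge of the threshold (27.9, 69.9 and 36.7 against 55.3, 76.8 and 80.3 CPM, -0.69 ± 0.21, adjusted p 0.0499), with overlapping ranges, and this call was lost without replicate 1 (-0.65, adjusted p 0.1), without replicate 3 (-0.46, adjusted p 0.363), without the block, with DESeq2 and with the purity gate. Il2rg (-0.33, 95% interval -0.59 to -0.08) and Il21r (0.06, -0.26 to 0.39) did not pass. In replicate 1 the Havcr2/Entpd1+ cells also carried B-cell markers at 2790 CPM and plasma cell markers at 3685, against at most 265 and 75.8 in the other libraries. Without replicate 1 the differences were -2.03 for Il7r and 1.19 for Il2rb, both past the threshold, without replicate 3 Il7r was not called (-1.98, adjusted p 0.0682), and without the block none was (Il2rb 1.10, adjusted p 0.136).

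**Figure D4:**
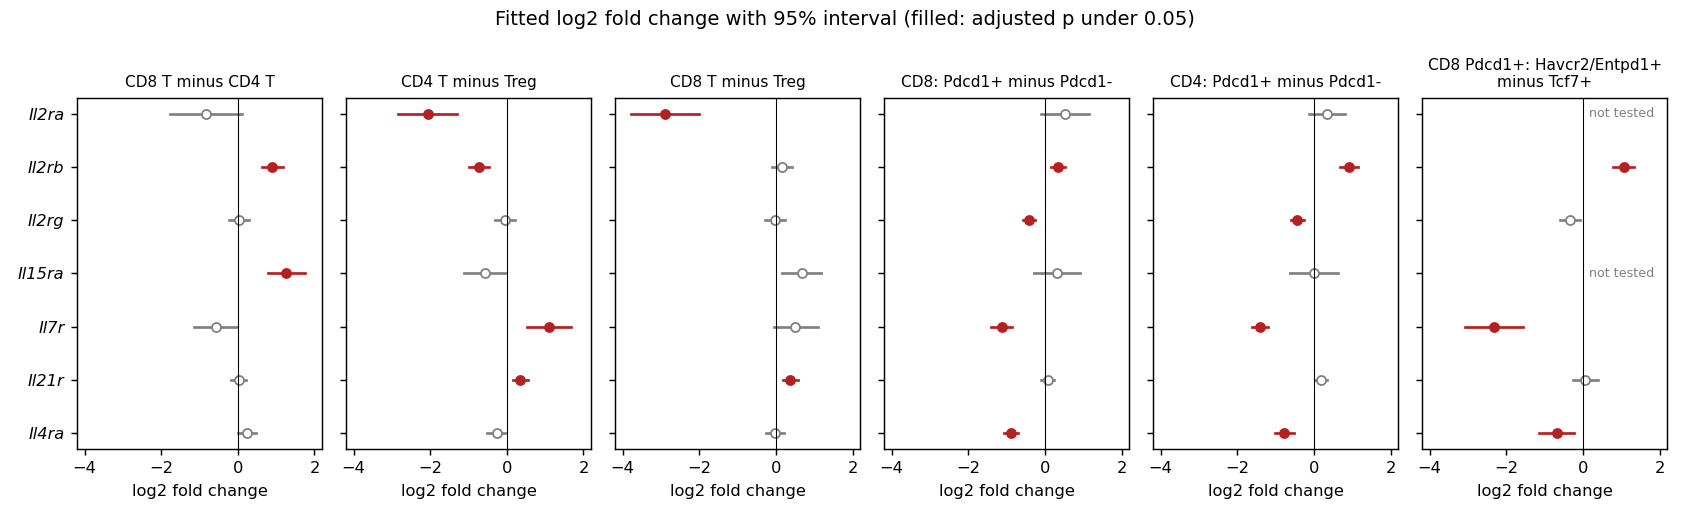
Fitted log2 fold change (horizontal axis) of each receptor chain with its 95% interval in 6 comparisons of T cells, with filled red points at adjusted p under 0.05 and open gray points above it. Il2ra lies farthest from 0 against Treg cells and Il7r in the comparison within Pdcd1+ CD8 T cells.

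The other genes of the pathway were taken as 3 lists. Of 10 further cytokines and receptors, 5 passed the count filter in the class fit. Il21, the ligand of Il21r, was highest in CD4 T cells among the 5 classes. It read 11.9, 8.11 and 4.75 CPM there, against means of at most 0.887 in the other classes. Il21 passed the count filter only through its CD4 T sums and so had to differ. The fitted difference of CD4 T minus Treg, 3.66 ± 0.48, is given as a description, with no test. Il2 read 4.69 ± 1.79 CPM in CD4 T cells and 1.65 ± 1.46 in Treg cells, which was not called (adjusted p 0.206). Il9 had no UMI in any class, and Il4, Il7 and Il13 stayed at or under 0.382 CPM on average in the 5 classes. All cells within the limits held 229 UMIs of Il13 (1.16 ± 0.279 CPM), most of them outside these classes. Il9r was highest in B cells (11.4 ± 1.25 CPM, CD4 T minus B -2.26 ± 0.31, adjusted p 3.15e-05). Of the family's ligands, Il15 and Il21 were the only ones whose mean exceeded 5 CPM in any of the 5 classes.

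Of 6 kinase and STAT genes (Jak1, Jak3, Stat3, Stat5a, Stat5b and Stat6), none differed between CD8 T and CD4 T cells (11.1% of all genes did) or between CD4 T and Treg cells (5.74%). Between CD8 T and Treg cells 1 did (16.6%), Jak1, which was higher in CD8 T cells. Against B cells all 6 differed from CD8 T cells (48.7% of all genes did), 5 higher and Stat6 lower, led by Stat5a (2.08 ± 0.14, adjusted p 4.82e-09) and Stat5b (1.74 ± 0.12, adjusted p 1.38e-08). In Pdcd1+ cells Stat3, which acts after IL-21, was higher (CD8 T 0.95 ± 0.08, adjusted p 5.46e-05, CD4 T 0.66 ± 0.09, adjusted p 0.00337) and Stat5b lower in both lineages. These were 2 of the 6 genes in CD8 T cells (14.4% of all genes differed). With Jak1, which was lower, 3 of 6 differed in CD4 T cells (14.5%). In Havcr2/Entpd1+ CD8 T cells Stat5a and Stat5b were lower (-1.31 ± 0.18 and -0.74 ± 0.14, adjusted p 0.000607 and 0.00419). Stat3 was higher there, so that 3 of 6 differed, where 13.2% of all genes did.

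Of 8 feedback and survival genes linked to STAT5, 1 differed between CD4 T and Treg cells (5.74% of all genes): Cish, an inhibitor induced by STAT5, at 12.7, 17.6 and 17.1 against 21.4, 33.0 and 36.8 CPM (-0.87 ± 0.13, adjusted p 0.00105). CD8 T cells read lower still for Cish, at 7.04 ± 1.00 CPM (CD8 T minus CD4 T -1.08 ± 0.15, adjusted p 0.000186), and were lower for Socs2, another such inhibitor, at 3.19 ± 1.44 against 23.5 ± 9.94 CPM in CD4 T cells (-2.72 ± 0.33, adjusted p 5.31e-05). In Pdcd1+ CD8 T cells 6 of the 8 were lower and none higher, where 14.4% of all genes differed (Socs1, Socs3, Bcl2, Mcl1, Pim1 and Pim2). In Pdcd1+ CD4 T cells 3 were lower (Mcl1, Pim1 and Pim2) and 1 higher, where 14.5% of all genes differed (Socs2, 1.26 ± 0.16, adjusted p 0.00322). In Havcr2/Entpd1+ CD8 T cells Socs1 (-2.01 ± 0.18, adjusted p 3.74e-05), Socs3 (-1.59 ± 0.18, adjusted p 0.000212) and Pim2 (-1.61 ± 0.40, adjusted p 0.0206) were lower, 3 of 6 tested, where 13.2% of all genes differed. The calls of list genes between Pdcd1+ and Pdcd1- cells were lost without the block, where no gene passed in either lineage. In the other comparisons the list genes are given for the main fit only. Between CD4 T and Treg cells the genes called fell from 694 to 101 without the block, 120 without replicate 2 and 146 without replicate 3. Between Havcr2/Entpd1+ and Tcf7+ cells they fell from 913 to 76 without the block.

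Genes with a like pattern over the 15 sums of class and library were named by Pearson's r of log2(CPM + 1), among genes of at least 20 CPM that no gate used. Il2rb ran closest to Cd3d (r = 0.978) and Cd3g (0.975), genes of the T-cell receptor complex. The gates set the classes apart by Cd3e, of the same complex, and NK cells, highest for Il2rb, are not among the sums. Il21r ran closest to Gimap6 (0.988) and Gimap4 (0.987). Il15 ran with Dok1 (0.988), Cstb (0.987) and Chil1 (0.987), each highest in macrophages, and Il7r with Ptprc (0.970) and Atp1b3 (0.952). Il2rg was closest to Zfp646 (0.978), Il2ra to Got1 (0.911), Il15ra to Tagap (0.914) and Il4ra to Ttc1 (0.955). Among the members themselves Il15 and Il21r were the most opposed (r = -0.92) and Il2rb and Il21r the most alike (0.85). These are descriptions over 15 sums from 3 libraries, which share depth and mice, and the macrophage sums weigh on them.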

How the data were processed

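Single-cell RNA was measured in 3 libraries of sorted islet CD45+ cells. The authors deposited filtered matrices of UMI counts per gene and cell, made with Cell Ranger 6.0.1 per the processing notes; whether counting used strand is not given in the sources used here. Cells were classed by rules on marker counts, with no clustering and no doublet caller, and 7, 30 and 22 cells of replicates 1, 2 and 3 that met both the CD8 and the Treg rule were left out. Counts were summed per library and class (at least 10 cells) and tested across all genes that passed filterByExpr, without the gate genes, with edgeR 4.0.16 (quasi-likelihood, TMM, library as block, Benjamini-Hochberg adjustment, threshold 0.05; R 4.3.3), tested first on simulated data. The block is used because classes of 1 library come from the same pooled mice. Deviations from class means correlated at 0.05 to 0.80 within libraries (mean 0.40, 30 pairs) and averaged -0.18 between them. Centering each class on its 3 libraries pulls the value between libraries below 0, so this contrast is no test of the pairing. What classes of a library share besides mice was not tested. The p-values set each difference against the spread left over these 3 libraries once the block has taken up what classes of a library share. All 5 classes were in 1 fit, so each pair of them used a spread estimated over all 5, macrophages included. A p-value of 1 pair is thus not a measure of how that pair alone varies over the libraries. Thinning drew 2000 UMIs per cell. For the thinned tests the gates were applied again to the thinned counts, so the cells of a class changed. In replicate 1 CD8 T cells went from 574 to 217 and Treg cells from 305 to 137. Differences after thinning thus reflect other cells as well as equal depth. The thinned shares kept the classes set on the full counts. Intervals for counts are exact Poisson at 95% and cover counting error only. The members and lists were chosen with earlier results of these data known. The genes named were the members, the called genes of the lists and the 3 most alike genes per member. Alternatives were DESeq2 1.42.0, RLE scaling, no low-count filter, no block, leaving out each library, the cell limits of the study, a purity gate, thinning, at least 2 Foxp3 UMIs, keeping cells that met both rules, and, chosen after seeing the data, leaving out macrophages.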

Additional observations from a re-analysis of the deposited data

How the results depend on the processing

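Of 106 member tests 57 were calls, and 27 of these were kept under every alternative run. Both 57 and 27 include the Il15 calls against macrophages, which had to differ. Those calls had no value after thinning or under the study's cell limits. Without the replicate block 23 were lost, without replicates 1, 2 and 3 there were 5, 15 and 16 lost, under the study's cell limits 11, after thinning 11, with DESeq2 4, with RLE, no low-count filter or the purity gate 3 each, and with at least 2 Foxp3 UMIs 2. Without the block the members called fell from 2 to 1 (CD8 T against Treg), 6 to 3 (Treg against B), 3 to 0 (Havcr2/Entpd1+ against Tcf7+) and 4 to 0 (CD4 T against Treg and both Pdcd1 comparisons). Leaving out 1 replicate gave 1 to 4 members for CD8 T against CD4 T, where 3.76% to 13.3% of all genes differed. Against Treg cells, CD8 T cells gave 1 to 4 (6.35% to 19.9%) and CD4 T cells 0 to 3 (1.00% to 9.13%). CD8 Pdcd1 gave 2 to 4 (8.93% to 17.4%). Havcr2/Entpd1+ against Tcf7+ gave 1 to 3 (3.30% to 11.2%), and the interaction 0 to 2 (0% to 1.55%). The share of all genes moved too, so these counts say little by themselves. The study's limits gave 1 for CD8 T against CD4 T (6.79% of all genes) and 1 for Havcr2/Entpd1+ against Tcf7+ (8.74%). Thinning gave 3 for CD8 T against B (37.6% of all genes) and 1 for CD8 Pdcd1 (6.67%). It gave 4 and 2 for CD4 T and B against macrophage (25.2% and 23.8%). With no low-count filter CD8 T against CD4 T gave 4 (8.90% of all genes) and the interaction 1 (1.02%). Il7r turned to 2.23 for Treg minus macrophage after thinning and to 0.94 for B minus macrophage under the study's limits. Thinning left macrophage sums of 2 libraries, and the limits of the study left 1. Apart from the construction of these settings, the cause was not tested. Thinning gave no value for Havcr2/Entpd1+ against Tcf7+. Over all genes, the counts without the block were 420 against 1346 (CD8 T and CD4 T), 777 against 2011 (CD8 T and Treg), 101 against 694 (CD4 T and Treg), 3826 against 5889, 4083 against 6237 and 3819 against 5847 (CD8 T, CD4 T and Treg against B) and 76 against 913 (Havcr2/Entpd1+ and Tcf7+). DESeq2 called 623 against 1395 and 795 against 1590 genes in the CD8 and CD4 Pdcd1 comparisons and 415 in the Havcr2/Entpd1+ one. Shares of cells moved when not thinned.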
